A study of Mus musculus with 6 samples.

Results

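The genes examined were 10 components of the machinery that methylates lysine 9 of histone H3 (H3K9) and silences the marked chromatin. They were chosen by name, with earlier results of these data known. *Suv39h1*, *Suv39h2*, *Setdb1*, *Setdb2*, *Ehmt1* and *Ehmt2* encode methyltransferases. *Atf7ip* and *Trim28* encode SETDB1 co-factors, and *Tasor* and *Mphosph8* encode parts of the HUSH (human silencing hub) complex. All 10 were found among the 55536 Ensembl genes of the count table, and all 10 were among the 20622 genes that passed the filter on low counts and were tested.

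Bulk RNA-seq was performed on Epcam and α6 integrin double-positive basal keratinocytes sorted from the dorsal skin of E16.5 mouse embryos, with 3 Ctrl and 3 TKO libraries. Embryos of both groups carried floxed alleles of *Suv39h1* and *Setdb1*, lacked functional *Suv39h2* and were exposed to tamoxifen. TKO embryos carried *K14CreERT2*, a recombinase driven by the keratin 14 promoter that acts in basal keratinocytes once tamoxifen is given, and Ctrl embryos did not. The comparison therefore tests deletion of *Suv39h1* and *Setdb1* on a *Suv39h2* null background, and no library with intact *Suv39h2* was part of it. The study lists 3 litters for bulk RNA-seq, with tamoxifen on 3 days from E9.5 to E11.5, and describes the knockout in all 3 as mosaic. Ctrl replicate 1 and TKO replicate 2 were labelled female and the other 4 libraries male. *Xist*, the RNA of the inactive X chromosome, matched these labels at 2638 and 2699 CPM (read counts relative to library size, after TMM scaling) in the libraries labelled female and at most 0.799 CPM in the others.

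Total counts ranged from 102159175 in Ctrl replicate 1 to 136515436 in Ctrl replicate 2, and from 108957256 to 118413082 in TKO. TKO replicate 3 stood apart from the other TKO libraries. A chi-square of the counts over genes, divided by its degrees of freedom, was 431 and 354 between it and TKO replicates 1 and 2, 89.8 between those, and 135.2 between it and Ctrl replicate 3. The basal markers *Krt5* and *Krt14* were abundant in every library, at 12318, 12051 and 8179 CPM for *Krt5* in Ctrl and at 6994, 8037 and 9022 CPM in TKO. The suprabasal keratin *Krt10* was also high, at 8073, 7868 and 9475 CPM in Ctrl and 7258, 5694 and 6094 CPM in TKO, so the libraries were not free of RNA typical of differentiating cells. The summed level of 6 fibroblast markers, led by *Col1a1*, was 1203, 3358 and 3009 CPM in Ctrl and 2162, 2564 and 2807 CPM in TKO. In bulk samples, fewer cells that express a gene and less RNA per cell cannot be told apart.

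Methylation of H3K9 is laid down by enzymes with a SET domain. SUV39H1 and SUV39H2 mainly write trimethylation at constitutive heterochromatin, EHMT1 and EHMT2 act as a heterodimer that writes mono- and dimethylation in euchromatin, and SETDB1 writes trimethylation at retroelements and at selected genes. SETDB1 is brought to its targets by TRIM28, which KRAB zinc finger proteins bind, and by the HUSH complex, whose chromodomain protein MPHOSPH8 reads H3K9me3. ATF7IP binds SETDB1, keeps it in the nucleus and protects it from degradation.

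Because *Suv39h1* is floxed and *Suv39h2* is null, it matters whether reads of these paralogs can be told apart. In the GENCODE vM39 annotation of GRCm39 their coding sequences matched at 64.8% of 1179 aligned bases. The longest stretch of identical coding bases ran for 26 bases, shown here in capitals with 9 coding bases on each side. The sequences shown, flanks included, lie within an exon of *Suv39h1* at chrX:7930206-7930249 (minus strand) and within an exon of *Suv39h2* at chr2:3463574-3463617 (minus strand).

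Suv39h1: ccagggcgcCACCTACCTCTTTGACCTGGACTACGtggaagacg
Suv39h2: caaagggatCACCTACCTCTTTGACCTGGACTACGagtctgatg

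No window of 50 bases in the canonical transcript of either gene occurred on the same strand in a transcript of another gene. For *Ehmt1* and *Ehmt2* the longest shared coding run was 20 bases, and for *Setdb1* and *Setdb2* 12 bases. *Setdb1* shared 443 of 4572 windows with *Gm4349*, a transcribed pseudogene on chromosome 3, which held 0, 15 and 10 counts in Ctrl and 4, 5 and 17 counts in TKO. *Atf7ip* and *Tasor* shared 0.997% and 1.13% of their windows with other genes on the same strand. Only canonical transcripts of the 10 genes were scanned, with 8074 bases for *Atf7ip*, 7633 for *Tasor* and 4621 for *Setdb1*. Their annotated exons cover 21152, 17343 and 10982 bases, and the rest was not compared. On the other strand the shares were highest for *Trim28* (45.0%) and *Tasor* (37.1%), which overlap antisense genes, and no window of *Ehmt1* or *Ehmt2* was shared.

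Of the 10 genes, *Atf7ip* alone passed the test across all genes, and it rose 2.16-fold in TKO. *Setdb1*, floxed in both groups, had lower values in all 3 TKO libraries than in the Ctrl libraries. *Tasor* was higher in 2 of 3 TKO libraries, and for the other 7 genes the groups overlapped with fold changes near 1. Genes were called at a Benjamini-Hochberg adjusted p-value under 0.05 from edgeR's quasi-likelihood test. By that rule 0.131% of all tested genes were called (27 genes, all higher), against 1 of the 10, chosen with earlier results of these data known. A block for the labels' replicate numbers gave 45 called genes, 1 of them lower. Without the block edgeR called 0 genes lower, 416 genes were lower at an unadjusted p-value under 0.05, DESeq2 called 39 lower, and edgeR called 85 lower without the low-count filter and 17 lower without TKO replicate 3.

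**Figure D1:**
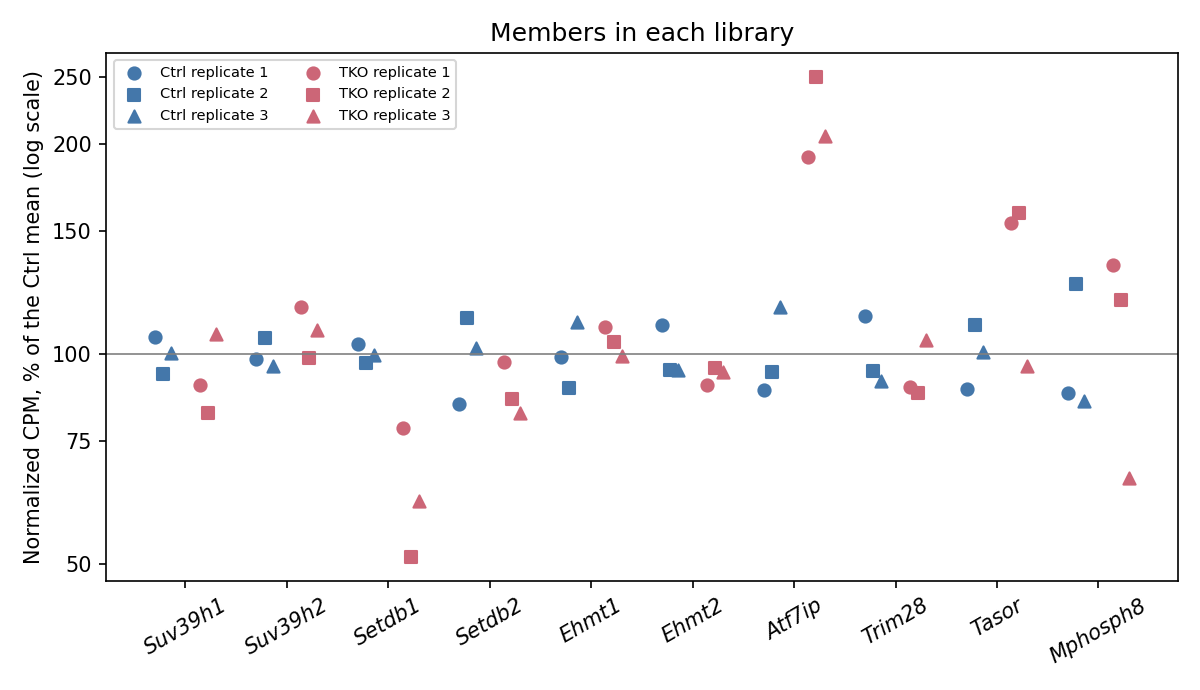
Normalized CPM of each gene in each library as a percentage of that gene's Ctrl mean, on a log scale, with blue symbols for the 3 Ctrl and red symbols for the 3 TKO libraries and the symbol shape giving the replicate number. *Setdb1* lies between 51.3% and 78.4% of the Ctrl mean in TKO and *Atf7ip* between 192% and 250%.

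*Setdb1* (chromosome 3, 95229399 to 95264541, minus strand) was at 125.5, 117.9 and 121.1 CPM in Ctrl replicates 1, 2 and 3 and at 95.3, 62.3 and 74.9 CPM in TKO replicates 1, 2 and 3. The Ctrl libraries lay close together, and the TKO libraries were all lower and spread more widely, at 78.4%, 51.3% and 61.6% of the Ctrl mean. The log2 fold change was -0.65 (95% interval -1.01 to -0.29), and the gene did not pass edgeR's test (adjusted p = 0.286). By its unadjusted p-value of 0.00253 in edgeR's fit it ranked 182 of 20622 genes. DESeq2 called it (adjusted p = 0.0449), and adjusted p lay between 0.00498 and 0.99997 in the 12 alternatives. Counts cover the whole gene, so RNA that still contains the floxed exons and RNA transcribed from a recombined allele are summed. The ceramide synthase gene *Cers2* shares 1309 exon bases with *Setdb1* on the other strand, and the sources used here do not state whether counting used strand. *Cers2* was at 30.1, 28.6 and 40.2 CPM in Ctrl and 31.0, 35.2 and 52.1 CPM in TKO, for a log2 fold change of 0.26 (SE 0.217).

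*Suv39h1*, the other floxed gene (chromosome X, 7927403 to 7940999, minus strand), was at 88.7, 78.5 and 84.0 CPM in Ctrl and at 75.6, 68.9 and 89.4 CPM in TKO. The highest value of all belonged to TKO replicate 3, and the groups overlapped. As for *Setdb1*, RNA with the floxed exons and RNA from a recombined allele are summed. A similar count therefore does not show that the gene was intact. By immunofluorescence, the paper reported loss of SUV39H1 protein from basal cells of TKO skin at E16.5, after tamoxifen on the same days. The log2 fold change was -0.10 with a 95% interval of -0.41 to 0.20. That interval leaves out the *Setdb1* estimate of -0.65 but overlaps the *Setdb1* interval of -1.01 to -0.29. In the females *Suv39h1* was at 88.7 CPM in Ctrl against 68.9 CPM in TKO (1 library each), and in the males the means were 81.3 and 82.5 CPM (2 libraries each).

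*Suv39h2* (chromosome 2, 3455774 to 3476146, minus strand), null in both groups, still gave between 15.6 and 18.9 CPM in all 6 libraries. The level was 15.9, 17.1 and 15.6 CPM in Ctrl and 18.9, 16.001 and 17.5 CPM in TKO, a log2 fold change of 0.11 (95% interval -0.22 to 0.45). The DNA repair gene *Dclre1c* shares 5074 exon bases with *Suv39h2* on the other strand and itself averaged 24.9 CPM in Ctrl against 24.3 CPM in TKO. Whether a part of the *Suv39h2* counts came from it was not tested.

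The remaining methyltransferases showed no difference beyond the spread between libraries. *Setdb2* (chromosome 14, 59637727 to 59678557, minus strand), a SETDB1 paralog, was at 12.5, 16.6 and 15.04 CPM in Ctrl and 14.3, 12.7 and 12.1 CPM in TKO, a log2 fold change of -0.17 (95% interval -0.56 to 0.22). *Cab39l* shares 436 exon bases with *Setdb2* on the other strand. It averaged 51.0 CPM in Ctrl and 42.1 CPM in TKO (log2 fold change -0.28, SE 0.141), and its part in the *Setdb2* counts was not tested. For *Ehmt1* (chromosome 2, 24679940 to 24809696, minus strand) the values were 136.8, 123.8 and 153.8 CPM in Ctrl and 151.3, 143.8 and 137.3 CPM in TKO, a log2 fold change of 0.06 (-0.23 to 0.35). Its partner *Ehmt2* (chromosome 17, 35117256 to 35133048, plus strand) was at 184.2, 158.5 and 158.4 CPM in Ctrl and 151.0, 159.6 and 157.7 CPM in TKO, with a log2 fold change of -0.10 (-0.38 to 0.18). Changes that lie within these intervals were not separated from no change.

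*Atf7ip*, on chromosome 6 (136483165 to 136587860, plus strand), was at 166.7, 177.0 and 219.2 CPM in Ctrl replicates 1, 2 and 3 and at 360.0, 468.6 and 385.1 CPM in TKO replicates 1, 2 and 3. All 3 TKO libraries were above all Ctrl libraries. The log2 fold change was 1.11 (95% interval 0.74 to 1.48) or 2.16-fold (1.67 to 2.78), and the gene passed edgeR's test (adjusted p = 0.0429). *Atf7ip* was the last of the 27 called genes in order of p-value. It kept its direction under all 12 alternatives, with adjusted p between 3.70e-08 (edgeR without the low-count filter) and 0.2698 (without Ctrl replicate 1). With sex as a factor in edgeR adjusted p was 0.103, and with 1 library left out it was above 0.05 in 5 of 6 fits. Within the females *Atf7ip* stood at 166.7 CPM in the Ctrl library and 468.6 CPM in the TKO library, and within the males the means were 198.1 and 372.5 CPM.

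The genes next to *Atf7ip* did not rise. *Plbd1*, which encodes a phospholipase B-like protein, ends 1207 bases beyond it on the opposite strand and had lower values in all TKO libraries, at 79.1, 83.0 and 86.7 CPM in Ctrl against 69.0, 66.8 and 63.6 CPM in TKO (log2 fold change -0.32, edgeR adjusted p = 0.702). On the other side the nearest tested protein-coding gene, *Grin2b*, lies 332617 bases away and did not exceed 0.390 CPM in any library. The antisense transcript *Gm44140*, which shares 148 exon bases with *Atf7ip*, did not exceed 0.102 CPM.

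*Trim28* (chromosome 7, 12733041 to 12764976, plus strand), the other SETDB1 co-factor, was at 482.9, 402.9 and 389.7 CPM in Ctrl and 382.0, 373.9 and 445.1 CPM in TKO. The groups overlapped, with a log2 fold change of -0.09 (95% interval -0.42 to 0.25). *Chmp2a* shares 2923 exon bases with *Trim28* on the other strand and averaged 34.8 CPM in Ctrl against 33.0 CPM in TKO.

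**Figure D2:**
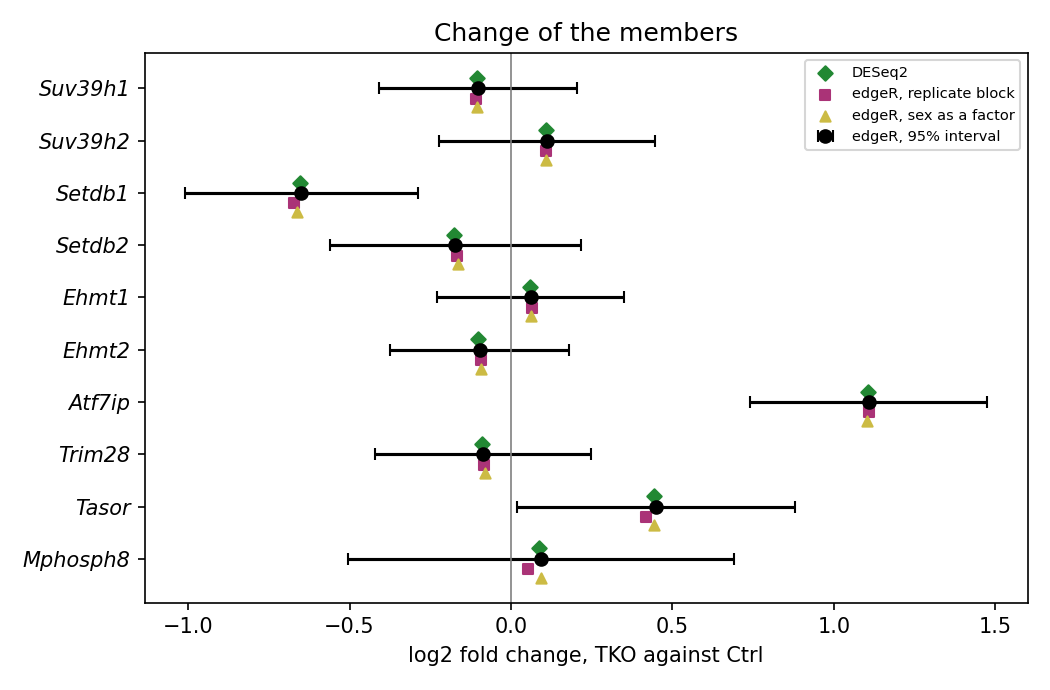
Log2 fold change of each gene, TKO against Ctrl, with black circles and bars for edgeR's estimate and its 95% interval and coloured symbols for DESeq2, for edgeR with a block for replicate number and for edgeR with sex as a factor. Only the intervals of *Setdb1*, *Atf7ip* and *Tasor* leave out 0, and the estimates of the 4 fits lie close together for each gene.

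*Tasor* (chromosome 14, 27150748 to 27205512, plus strand), which encodes the scaffold of the complex, was at 60.2, 74.3 and 67.9 CPM in Ctrl and at 103.9, 107.4 and 65.0 CPM in TKO. TKO replicates 1 and 2 were above all Ctrl libraries, and TKO replicate 3 was within the Ctrl range. The log2 fold change was 0.45 (95% interval 0.02 to 0.88), and it did not pass edgeR's test (adjusted p = 0.798, from an unadjusted p-value of 0.0430). Without TKO replicate 3, which stood apart, the log2 fold change was 0.65 (edgeR adjusted p = 0.0807). In 6 of the 12 alternatives, among them sex as a factor and the fits without TKO replicate 1 or TKO replicate 2, the unadjusted p-value was above 0.05, up to 0.164. *Ccdc66* shares 2507 exon bases with *Tasor* on the other strand and had the same pattern, at 7.07, 11.5 and 9.38 CPM in Ctrl and 15.01, 13.8 and 8.80 CPM in TKO. Its part in the *Tasor* counts was not tested.

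*Mphosph8* (chromosome 14, 56905666 to 56935542, plus strand), which encodes the chromodomain subunit, was at 13.0, 18.7 and 12.7 CPM in Ctrl and 19.9, 17.7 and 9.87 CPM in TKO. TKO replicate 3 was the lowest of all 6 libraries and TKO replicate 1 the highest. The log2 fold change of 0.09 had the widest interval of the 10 genes, from -0.50 to 0.69, and it was 0.34 without TKO replicate 3 (edgeR adjusted p = 0.654). Without that library *Setdb1* was at -0.63 (adjusted p = 0.225, edgeR) and *Atf7ip* at 1.14 (adjusted p = 0.0381, edgeR).

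At an unadjusted p-value under 0.05 stood 3 of the 10 genes and 6.08% of all tested genes, and in the 6 alternatives where *Tasor* missed that threshold 2 of the 10 remained. Of the 10, *Setdb1* was lower and *Atf7ip* and *Tasor* were higher, where 2.02% of all tested genes were lower and 4.06% higher. The groups did not overlap for 1 lower and 1 higher gene, against 5.11% and 6.35% of all tested genes. The median log2 fold change was -0.01 over the 10 genes and 0.01 over all tested genes. These shares cannot be read as an enrichment among the 10. *Setdb1* was deleted by design, and the 10 genes were chosen with earlier results of these data known. The paper lists *Atf7ip* and *Tasor* among genes upregulated in TKO, *Tasor* only in nascent RNA.

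Levels of different genes were compared per kb of annotated exon. In Ctrl *Trim28* was highest, at 98.6 ± 11.7 CPM per kb (SD, n = 3), followed by *Ehmt2* at 29.0 ± 2.59 and *Suv39h1* at 15.4 ± 0.939. *Ehmt1* stood at 13.1 ± 1.44, *Setdb1* at 11.1 ± 0.347 and *Atf7ip* at 8.87 ± 1.31 CPM per kb. The lowest levels were those of *Tasor* (3.89 ± 0.406), *Mphosph8* (2.89 ± 0.658), *Setdb2* (2.45 ± 0.347) and *Suv39h2* (1.60 ± 0.0778). Neighbours in this order whose Ctrl libraries overlapped were *Suv39h1* with *Ehmt1*, *Tasor* with *Mphosph8*, and *Mphosph8* with *Setdb2*. In TKO *Atf7ip* reached 19.1 ± 2.69 CPM per kb and *Setdb1* was at 7.05 ± 1.52. The order depends on the length used. Divided by the longest annotated transcript, *Atf7ip* came before *Ehmt1* and *Setdb1* in Ctrl, and *Suv39h2* and *Setdb2* were nearly equal.

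**Figure D3:**
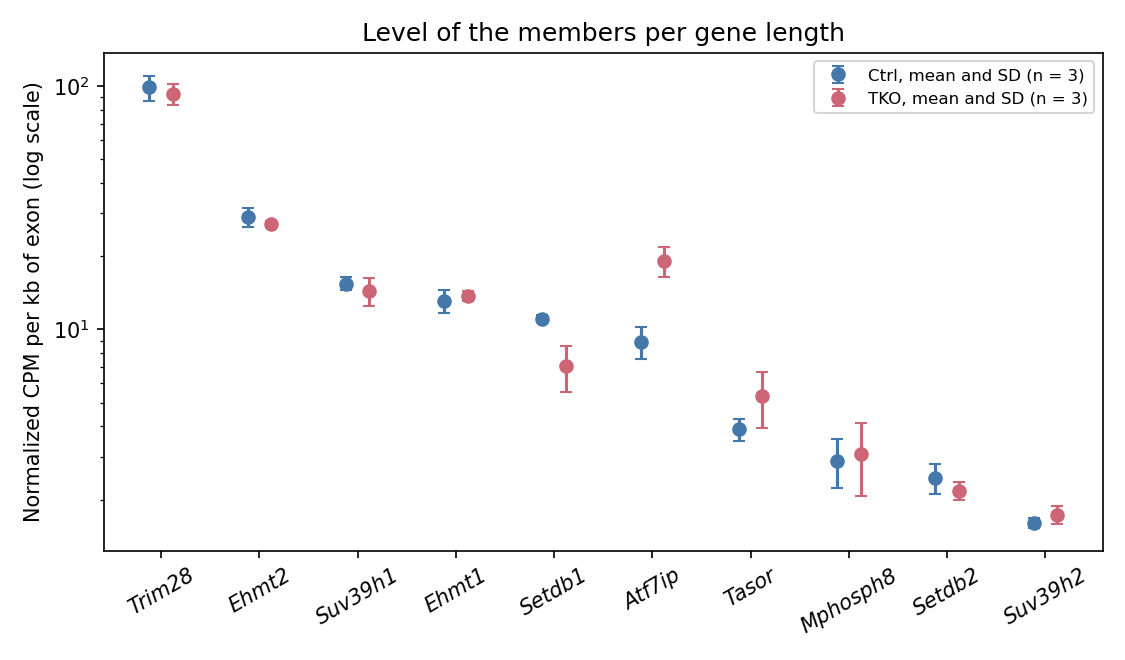
Normalized CPM per kb of annotated exon on a log scale for the 10 genes in order of their Ctrl level, with the mean and SD of 3 Ctrl (blue) and 3 TKO (red) libraries. *Trim28* is highest at 98.6 CPM per kb in Ctrl, and *Atf7ip* moves from 8.87 in Ctrl to 19.1 in TKO.

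The other genes were then set beside the *Setdb1* level of each library. Since *Setdb1* separated the groups and each group had 3 libraries, no correlation between *Setdb1* and the other 9 genes is given. The TKO libraries were put in order of *Setdb1* instead: replicate 1 (95.3 CPM), replicate 3 (74.9 CPM) and replicate 2 (62.3 CPM). Along that order *Atf7ip* went from 360.0 to 385.1 and 468.6 CPM, opposite to *Setdb1*, as did *Ehmt2* over a narrow range from 151.0 to 157.7 and 159.6 CPM. *Suv39h2* followed the order of *Setdb1*, from 18.9 to 17.5 and 16.001 CPM. The other 6 genes followed neither direction. Of all tested genes 9.38% had the same order as *Setdb1* in the TKO libraries and 11.1% the opposite order. The ratio of *Setdb1* to *Atf7ip* CPM was 0.753, 0.666 and 0.552 in Ctrl and 0.265, 0.133 and 0.194 in TKO.

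**Figure D4:**
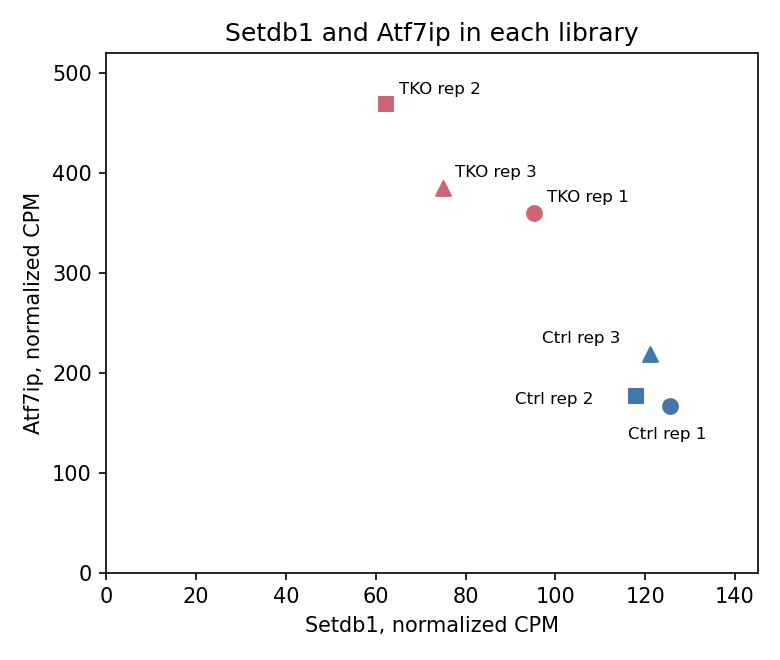
*Setdb1* against *Atf7ip* in normalized CPM, with 1 point per library, blue for Ctrl and red for TKO. The Ctrl libraries lie between 117.9 and 125.5 CPM of *Setdb1* and the TKO libraries between 62.3 and 95.3 CPM, with *Atf7ip* highest where *Setdb1* is lowest.

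The 5 tested genes whose levels followed *Setdb1* most closely were sought by Pearson's correlation of log2(CPM + 0.01) over the 6 libraries, as a description that pools both groups and therefore reflects the split between them. They were *Prtn3* (r = 0.995), *Slc12a3* (0.989), *Meak7* (0.988), *Gm47902* (0.986) and *Gcdh* (0.984). *Prtn3*, a neutrophil serine protease, was at 0.273, 0.224 and 0.269 CPM in Ctrl and 0.110, 0.0272 and 0.0658 CPM in TKO. Only the value in TKO replicate 2 was near the level of 3 counts (0.0232 to 0.0303 CPM). *Slc12a3* was at 0.202, 0.217 and 0.204 CPM in Ctrl and 0.0850, 0 and 0.00822 CPM in TKO, under 3 counts in 2 of 3 TKO libraries, so that its r depends on the pseudocount. *Gcdh*, a mitochondrial glutaryl-CoA dehydrogenase, was at 28.2, 27.4 and 26.6 CPM in Ctrl and 24.8, 21.5 and 22.1 CPM in TKO. In all, 170 of 20166 tested genes with a symbol had r above 0.9.

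Other genes of the same pathway were followed in 6 lists of 51 genes, of which 50 were tested. edgeR called 0 of the 50, as did DESeq2. By unadjusted p under 0.05, 1 of the 50 was lower and 1 higher, against 2.02% and 4.06% of all tested genes. The median log2 fold change of the 50 genes was 0.04. The higher gene was *Zfp57*, a KRAB zinc finger gene whose protein recruits TRIM28 to imprinted loci, at 4.35, 6.21 and 6.49 CPM in Ctrl and 8.68, 11.1 and 7.19 CPM in TKO (log2 fold change 0.66, edgeR adjusted p = 0.7295). The groups did not overlap for 4 higher genes of the 50, *Zfp57* among them, and for 1 lower gene. Of all tested genes 6.35% were higher and 5.11% lower without overlap.

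Among 14 SETDB1 and TRIM28 partners the most abundant per kb were the chromatin remodellers *Chd3* and *Chd4*, with log2 fold changes of 0.02 and 0.06. Of the 14 genes, 9 had a log2 fold change above 0 and 5 below. The highest was that of *Atf7ip2*, at 0.89 (edgeR adjusted p = 0.893). It was at 0.616, 0.395 and 0.770 CPM in Ctrl and 1.44, 1.08 and 0.773 CPM in TKO, without overlap of the groups. The 4 tested HUSH partners had log2 fold changes from -0.13 to 0.17. They included *Morc2a*, an ATPase that acts with HUSH (126.2, 118.9 and 128.6 CPM in Ctrl; 137.1, 139.3 and 144.4 CPM in TKO), and *Tasor2*, whereas *Morc2b* was at or under 0.0303 CPM and was not tested. The 8 EHMT partners and other H3K9 methyltransferases ranged from -0.14 to 0.65, with *Prdm2* at 0.13 and *Zfp644* at -0.13. For the 6 genes of readers of H3K9 methylation and their partners the range was -0.16 to 0.04, with *Uhrf1* at 0.03 and *Cbx5*, which encodes HP1α, at 0.04. The 11 demethylases ranged from -0.29 to 0.16, led in abundance by *Kdm1a* and *Kdm4a* with 0.05 and 0.04. The 7 genes of H3K27 and H4K20 methylation, including the PRC2 subunits *Eed* and *Suz12*, ranged from -0.08 to 0.17, with *Kmt5a* at 0.17 and *Ezh2* at -0.08.

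**Figure D5:**
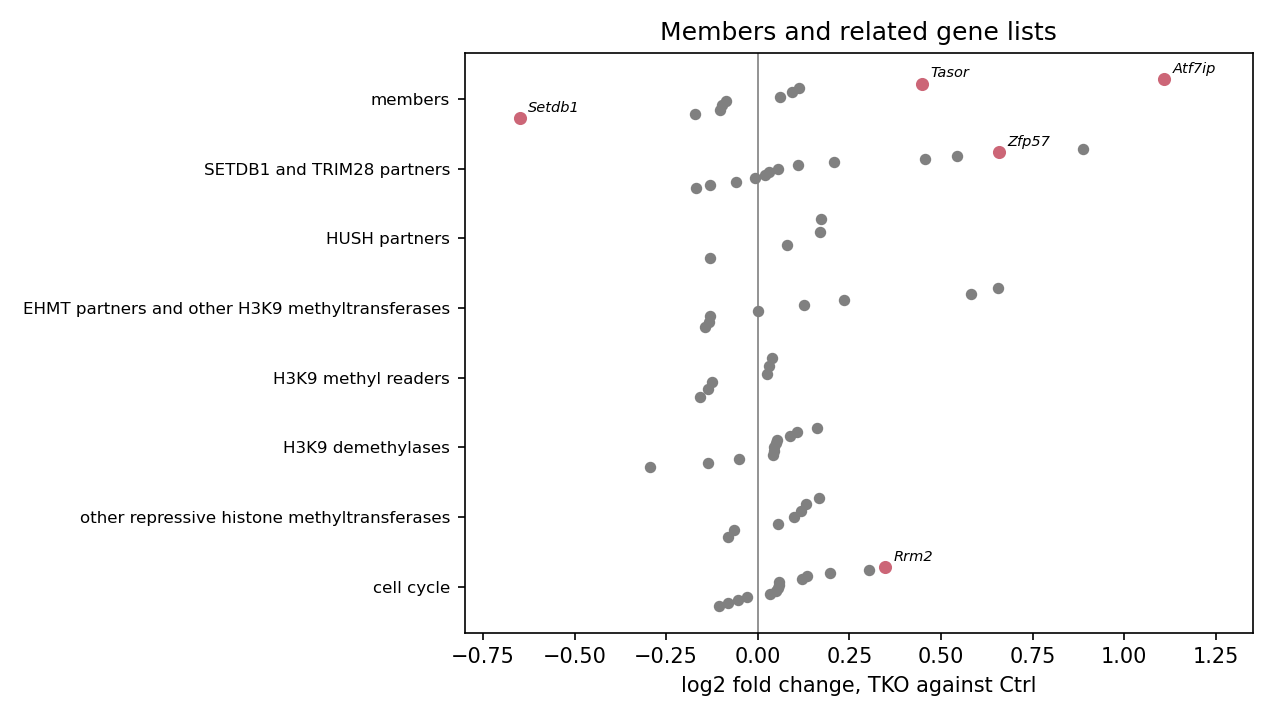
Log2 fold change of the tested genes reported here, TKO against Ctrl, for the 10 genes and for 7 further lists, with red and a name for an unadjusted p-value under 0.05. *Atf7ip* at 1.11 and *Setdb1* at -0.65 lie at the ends of the range, and most points lie near 0.

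Genes that mark cell division or other cell types were read beside these results. Of 14 cell cycle genes 1 (*Rrm2*) was higher at an unadjusted p-value under 0.05, the summed level was 2197, 2625 and 1854 CPM in Ctrl and 2460, 2263 and 2138 CPM in TKO, and the list's median log2 fold change was 0.06. All 4 tested Merkel cell markers of 5 were lower at an unadjusted p-value under 0.05, with a summed level of 7.10, 8.34 and 7.14 CPM in Ctrl and 2.45, 1.49 and 2.58 CPM in TKO. Their most abundant gene was *Krt8*, none of them passed after adjustment (lowest edgeR adjusted p = 0.113), and *Krt20* was at 0 in TKO replicates 1 and 2. The 8 basal keratinocyte markers, led by *Krt5*, summed to 24329, 24101 and 18107 CPM in Ctrl and 15025, 16826 and 19231 CPM in TKO. Of these *Krt15* alone was lower at an unadjusted p-value under 0.05, at 2716, 2579 and 2089 CPM in Ctrl and 901, 792 and 1573 CPM in TKO. The 7 suprabasal markers, led by *Krt1*, summed to 18628, 18230 and 20102 CPM in Ctrl and 16298, 12328 and 13071 CPM in TKO, and 2 of them (*Krt1* and *Krt10*) were lower at an unadjusted p-value under 0.05. Skeletal muscle markers (5 genes, led by *Acta1*) summed to 1.53, 2.64 and 2.48 CPM in Ctrl and 2.03, 6.55 and 8.48 CPM in TKO, 1 of them (*Acta1*) was higher at that threshold, and *Myod1* did not exceed 0.353 CPM. The 4 endothelial markers, led by *Cdh5*, summed to 25.3, 24.9 and 34.9 CPM in Ctrl and 23.8, 61.2 and 47.5 CPM in TKO, with 1 (*Cdh5*) higher. The 5 immune markers, led by *Csf1r*, summed to 19.4, 39.6 and 11.4 CPM in Ctrl and 5.58, 69.3 and 16.6 CPM in TKO, and *Cd207*, which marks Langerhans cells, was not tested, with 3, 0 and 5 counts in Ctrl and 0 in all TKO libraries. Melanocyte markers (5 genes, led by *Mitf*) summed to at most 13.1 CPM in any library, with 1 (*Mlana*) higher, and hair placode and follicle markers (5 genes, led by *Edar*) to 231.8, 233.4 and 262.2 CPM in Ctrl and 204.8, 239.6 and 363.9 CPM in TKO, highest in TKO replicate 3. The part of these cell types in the *Setdb1* and *Atf7ip* values was not tested.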

How the data were processed

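Libraries were depleted of rRNA and sequenced in pairs. The authors trimmed reads with fastp, used STAR for alignment and deposited a table of unnormalized read counts by Ensembl gene for each library. The methods name GRCm39 and the submitters' processing notes GRCm38, and the counting program, annotation and strand setting are not given in the sources used here. Symbols and positions came from GENCODE vM39 (GRCm39), which held 51477 of 55536 rows. Genes were kept by filterByExpr (minimum count 10, minimum total 15), scaled by TMM and tested in R 4.3.3 with edgeR 4.0.16 (glmQLFit, robust, glmQLFTest, two-sided, adjusted over all tested genes). Standard errors and 95% intervals were derived from the quasi-likelihood F statistic. The study took littermates without the recombinase as controls, but the labels do not tie libraries to litters, so p-values measure the spread between these libraries. A count of 3 was taken as the floor, which covers counting error only.

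Groups, replicate numbers and sexes came from the sample labels. Same-numbered Ctrl and TKO libraries deviated together from their group means, with correlations of 0.144, 0.117 and 0.336 over genes above a mean of 1 CPM, each above 0.1, and a fit with the replicate number as a block was therefore set beside the main results. Ctrl replicate 1 and TKO replicate 2, both female, had a correlation of 0.153. The alternatives were DESeq2 1.42.0, RLE size factors, no filter beyond 1 count in total, annotated rows only, the block, sex as a factor, each library left out in turn, a fold threshold and, for levels per kb, the longest transcript. Windows of 50 bases and coding sequences were compared with biopython 1.88, and figures were drawn with matplotlib 3.10.9. The 10 genes, the lists and the rule for named genes (the 10 genes; pathway genes at an unadjusted p-value under 0.05 and the 2 most abundant per kb of each list; the 5 genes most like *Setdb1*) were chosen with earlier results of these data known. Neighbouring genes, overlapping genes, *Atf7ip2*, *Kdm4d* and *Xist* were added as context. For 1 pathway gene, which is part of the counts, the result is not reported here.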

Additional observations from a re-analysis of the deposited data

How the results depend on the processing

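The number of called genes (27) was 259 with DESeq2, 349 without the low-count filter and 45 with a block for replicate number. It ran from 7 (without Ctrl replicate 2) to 83 (without TKO replicate 3) when 1 library was left out, with 8 without Ctrl replicate 1, 8 without Ctrl replicate 3 and 15 without TKO replicate 2. *Setdb1* was called with DESeq2 (log2 fold change -0.65) and without the low-count filter (-0.68), and ran from -0.83 to -0.52 with 1 library left out. *Atf7ip* was not called with sex as a factor (1.10) and ran from 0.99 to 1.23 with 1 library left out, called only without TKO replicate 3. These fits had fewer samples, and the cause of the loss with sex was not tested. The signs of *Ehmt1* (-0.01 to 0.14), *Trim28* (-0.17 to 0.01) and *Mphosph8* (-0.12 to 0.34) turned in 4 of the 120 alternative values, each with 1 library left out: -0.013 for *Ehmt1* without Ctrl replicate 2, 0.013 for *Trim28* without Ctrl replicate 1, and -0.0069 and -0.12 for *Mphosph8* without Ctrl replicate 3 and without TKO replicate 1. *Suv39h1* ran from -0.21 to -0.02, *Suv39h2* from 0.04 to 0.17, *Setdb2* from -0.28 to -0.08, *Ehmt2* from -0.14 to -0.02 and *Tasor* from 0.32 to 0.65. The block changed no other call. Other pathway genes higher at an unadjusted p-value under 0.05 (1) numbered 2 with DESeq2, 3 without the filter, 3 with the block and 0 to 4 with 1 library left out, and lower ones 0 to 1. Without the filter 1 gene, not 2, had the opposite order to *Setdb1*. Per kb of the longest transcript, Ctrl levels in CPM were 26.7 for *Suv39h1*, 2.98 for *Suv39h2*, 18.3 for *Setdb1*, 2.94 for *Setdb2*, 20.4 for *Ehmt1*, 41.0 for *Ehmt2*, 22.9 for *Atf7ip*, 124.9 for *Trim28*, 8.84 for *Tasor* and 3.95 for *Mphosph8*. *Tasor* had an unadjusted p-value above 0.05 in 6 of its 12 alternatives. With 3 libraries a group, an interval that spans 0 leaves changes of either sign within it undetected.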
